A study of Caenorhabditis elegans with 2 samples.

Results

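In L4 larvae of the nematode Caenorhabditis elegans, 488 of the 4293 binding peaks of a GFP-tagged transcription factor held the E-box CACGTG close to the summit and lay outside the promoters of protein-coding genes. A peak was counted here where the whole hexamer lay within 100 bp of the summit, the base of strongest enrichment, and where the summit was outside the promoter window of every protein-coding gene, which runs 1000 bp before the start and 200 bp past it. The peaks were thus chosen by their sequence, their position and their place in the authors' list of peaks that passed the irreproducible discovery rate (IDR) comparison of the replicates. That list holds the pooled peaks of highest signal, so they were also selected on strength, and these properties are only described below. Of all IDR peaks, 791 had the E-box (18.4%), and of the 2449 IDR peaks outside promoter windows 488 had it (19.9%). The remaining 303 E-box peaks lay in promoter windows, and 1961 peaks outside them had no E-box.

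The data were chromatin immunoprecipitation and sequencing (ChIP-seq) of 1 group in 2 biological replicates. These were whole worms of strain OP355 at L4, the last larval stage, with sex given as mixed and age as unknown. Both replicates carried unc-119(tm4063) on chromosome III and the transgene wgIs355, so the samples share 1 strain and 1 integrated transgene. The labels name different tagged proteins, since eGFP-ZK337.2 stands in the free text, and mdl-1 under strain and antibody. The peaks are therefore described as those of the tagged protein. Library fragments ran from 150 to 350 bp, and sequencing depth is unknown because the files list peaks without reads. Exact intervals below cover only the number of peaks or sites counted. With 1 group no test between conditions was possible, and peaks are not replicates, so sets of peaks are set side by side without a test. Signal is the peak caller's own value, compared only within a list because pooled and single-replicate lists are on different scales. In whole worms, binding in more cells and more binding per cell cannot be told apart.

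CACGTG is the palindromic E-box read by dimers of basic helix-loop-helix leucine zipper proteins of the Myc, Max, Mad and Mondo families. In the worm, MDL-1 is a Mad-type protein that pairs with the Max-type protein MXL-1, and the Mondo-type protein MML-1 pairs with MXL-2. These proteins act in growth, metabolism and lifespan. Sites in introns and between genes can lie in enhancers, although a binding site alone does not show one.

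The 30 bases around the E-box nearest to the summit are shown for 14 strong peaks, because the hexamer was fixed by the choice of peaks and the bases beside it were not. They were read from the RefSeq sequence of WBcel235, the assembly of ce11, on the plus strand from 5′ to 3′, each with the gene that holds the summit or else has the nearest start. Capitals mark the E-box.
abts-4 X:6750267-6750296: aaaacatagaccCACGTGtgggtgcgtccg
R03E9.2 X:6737735-6737764: atgcatgggatgCACGTGcgccagcagatg
aakg-1 III:12583678-12583707: aagagagacaggCACGTGtggtccaggagg
mdl-1 X:6742970-6742999: gtaagtttcatcCACGTGcgtctagcgtgt
gdh-1 IV:11956483-11956512: cgattagagaccCACGTGggtgagagtcgc
bcat-1 X:12872509-12872538: tcaactgggggcCACGTGggggcccccgac
nhr-19 II:9603675-9603704: acacattgatatCACGTGgggttgaagatc
mdl-1 X:6744025-6744054: ccacatgttgatCACGTGtcgccgatcagt
Y43F8B.2 V:19529364-19529393: cggtgcgcaatgCACGTGaatcgccgccgc
F09A5.3 X:13145350-13145379: cgatctctgcatCACGTGaagcggcccgtc
aak-2 X:16796943-16796972: gcattggaaaaaCACGTGccgcaacgtatc
nhr-34 IV:9677840-9677869: ttagataaagtgCACGTGgcaactgcgaga
hif-1 V:20778306-20778335: ccttctctaaacCACGTGttccctctctat
mml-1 III:7376543-7376572: caaaattatagcCACGTGgtttcccagaaa
The flanks of the hexamer differed from peak to peak. Among all 488 peaks, the 30-base contexts came to 488 distinct sequences, so no context was shared between peaks. Stretches this long would rarely match unless the sequence were duplicated, so this count does not describe preferred flanking bases.

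Whole windows of 200 bp around the summit are given for 4 peaks with contrasting layouts, a lone E-box at the 2 strong peaks of aakg-1 and bcat-1 and 3 E-boxes at those of tpra-1 and pah-1. The strand, the build and the meaning of the capitals are as above.
aakg-1 III:12583586-12583785: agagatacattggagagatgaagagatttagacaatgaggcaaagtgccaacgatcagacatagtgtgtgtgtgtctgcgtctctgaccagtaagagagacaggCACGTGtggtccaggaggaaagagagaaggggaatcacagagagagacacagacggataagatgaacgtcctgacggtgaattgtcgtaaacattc
bcat-1 X:12872379-12872578: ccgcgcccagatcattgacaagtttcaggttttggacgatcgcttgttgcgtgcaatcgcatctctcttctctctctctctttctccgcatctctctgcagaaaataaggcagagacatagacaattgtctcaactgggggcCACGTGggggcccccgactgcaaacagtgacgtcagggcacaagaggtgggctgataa
tpra-1 IV:8949749-8949948: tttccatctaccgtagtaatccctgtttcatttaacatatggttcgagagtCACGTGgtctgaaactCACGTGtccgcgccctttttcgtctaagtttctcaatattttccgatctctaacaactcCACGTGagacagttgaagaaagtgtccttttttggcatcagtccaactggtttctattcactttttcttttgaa
pah-1 II:8765229-8765428: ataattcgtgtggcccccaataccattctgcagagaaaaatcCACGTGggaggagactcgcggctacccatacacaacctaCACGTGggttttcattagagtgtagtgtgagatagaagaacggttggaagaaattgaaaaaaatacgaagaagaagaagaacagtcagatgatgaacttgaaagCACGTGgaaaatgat

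The strongest of these peaks stood far above the rest. Their pooled signal ran from 45.7 to 1411, with a median of 101.6 (95% interval 94.3 to 110.5) and quartiles of 64.2 and 167. The strongest lay in intron 17 of abts-4, which encodes an anion transporter, at X:6750057-6750701, with 1411 in the pooled list, 719 in replicate 1 and 690.0 in replicate 2. It was the strongest of all 4293 IDR peaks, and 11 of the 20 strongest IDR peaks were E-box peaks outside promoters. Of these 11, 7 lay outside a block of strong peaks around mdl-1, which also holds the peaks of abts-4 and R03E9.2. The next 2 E-box peaks lay between genes. The peak assigned to R03E9.2 had a pooled value of 1199, 612 in replicate 1 and 584 in replicate 2. The peak at III:12583482-12583897 lay 8285 bp upstream of aakg-1, which encodes a regulatory gamma subunit of AMP-activated kinase, and had a pooled value of 976, 536 in replicate 1 and 443 in replicate 2. In all 3 the higher value was that of replicate 1, with little distance between the replicates.

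The following peaks were assigned to genes of varied function. The peak at IV:11956304-11956798, 3264 bp downstream of the start of gdh-1 for glutamate dehydrogenase and past the end of that gene, had a pooled signal of 892. The peak at X:12872178-12872715, 5001 bp upstream of bcat-1 for a branched-chain aminotransferase, had 890.4. The peak in intron 1 of aak-2, which encodes a catalytic alpha subunit of AMP-activated kinase, had 613, with 337 in replicate 1 and 275 in replicate 2. The peak 3412 bp upstream of lpin-1, for the phosphatidate phosphatase lipin, had 379, with 220.0 in replicate 1 and 161 in replicate 2. The peak in intron 2 of the nuclear hormone receptor gene nhr-19 had 887, with 426 in replicate 1 and 461 in replicate 2, the reverse order of the peaks above. Other values were 564 upstream of nhr-34, 486 at 2026 bp upstream of the hypoxia factor gene hif-1, 477 in intron 1 of the SMAD gene daf-14, 438 in intron 1 of spop-1 and 415 in intron 1 of drap-1, whose product is related to a repressor of transcription initiation.

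**Figure D1:**
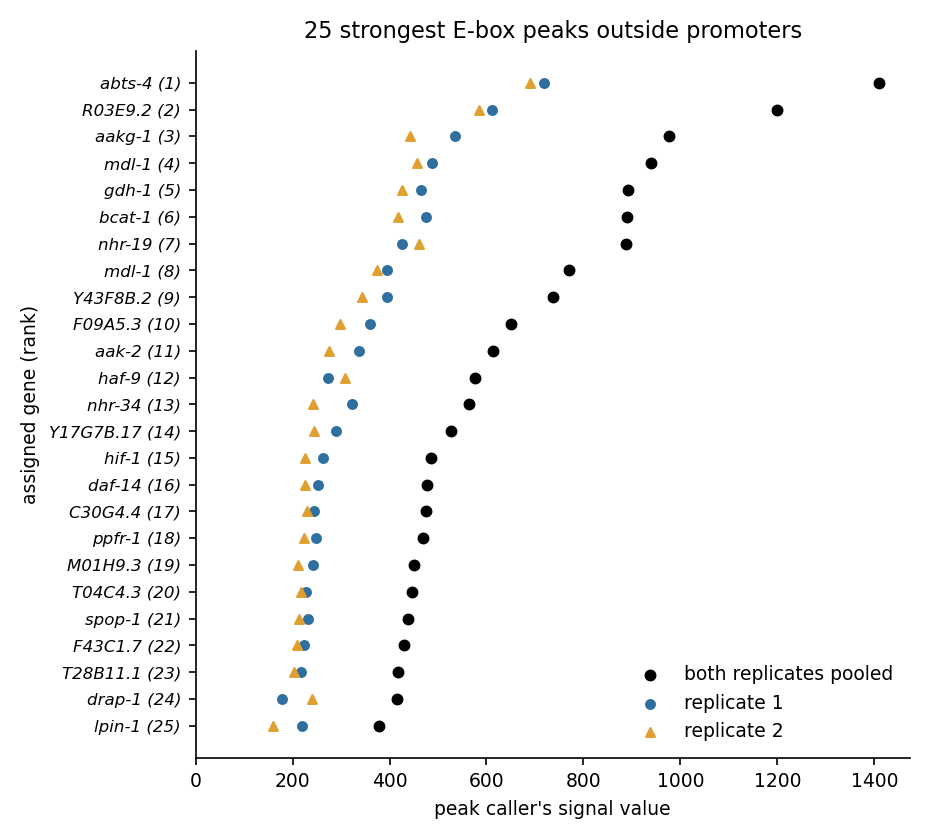
The plot gives the signal of the 25 strongest E-box peaks outside promoters by rank and assigned gene, as black points for both replicates pooled, blue points for replicate 1 and orange triangles for replicate 2. The replicates lay close together at each peak, with log2 ratios of replicate 1 over replicate 2 from -0.43 at drap-1 to 0.45 at lpin-1.

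A run of strong peaks surrounded mdl-1, the gene named in the strain label. The block at X:6728925-6750701 held 22 IDR peaks, 8 of them E-box peaks outside promoters, and its 21777 bp held 17 copies of CACGTG. These 8 had a median pooled signal of 543, and 4 of them were among the 10 strongest. Of the 4 peaks assigned to mdl-1 itself, the one in intron 2 had 939, one just past the gene had 769, and the others had 317 and 68.1. The strain field names mdl-1 as the target of the transgene, and the part of the transgene in the signal of this block was not tested. Outside the block the remaining 480 peaks had a median of 101.3, so the median of the whole set does not rest on it.

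Signals of the replicates ran together across the set. Each of the 488 peaks was overlapped by at least 1 bp in both replicate lists, as were 99.7% of all IDR peaks. With at least 50% of both peaks covered, 86.9% of the E-box peaks outside promoters and 93.1% of the other peaks outside promoters were still overlapped in both. Against only the 4293 strongest peaks of each replicate, the shares were 85.5% and 74.6%, in the same order of sets. Spearman's rho between the replicates was 0.86 over the 488 peaks and 0.65 over the 1961 peaks without the E-box, as descriptions of lists made from these replicates. The quartiles of pooled signal lay farther apart in the first set (64.2 and 167) than in the second (55.6 and 103). The part of this range in rho was not tested. The median log2 ratio of replicate 1 over replicate 2 was 0.08 ± 0.50 (SD over 488 peaks), and 458 peaks (93.9%) had ratios between -1 and 1. For 27 peaks the replicate value came from a replicate peak that also overlapped a neighbouring IDR peak, and rho over the other 461 was 0.86.

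**Figure D2:**
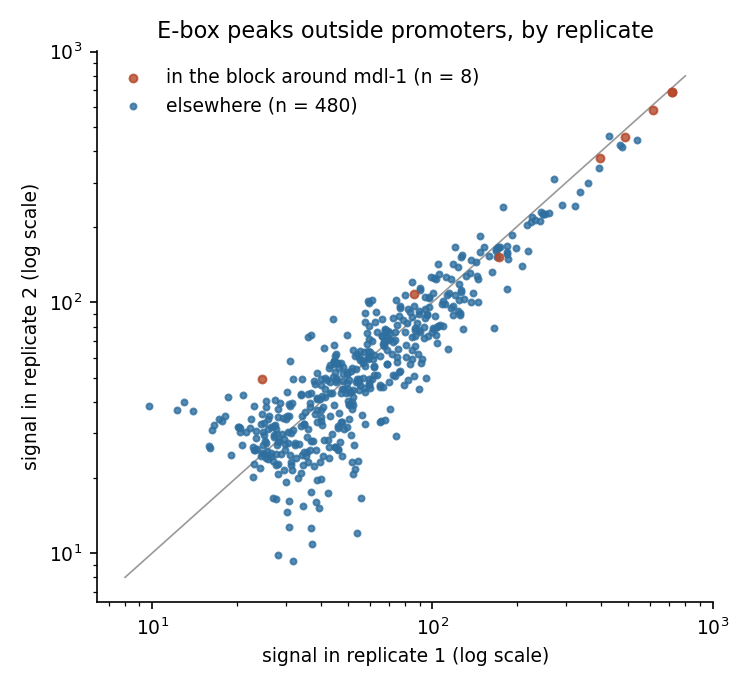
Each point is 1 of the 488 peaks, with its signal in replicate 1 on the horizontal and replicate 2 on the vertical axis, both on log scales, red for the 8 peaks of the block around mdl-1 and blue for the other 480. The line marks equal values, and the spread around it narrows with strength.

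The signal of E-box peaks outside promoters was above that of peaks outside promoters without the E-box. The median pooled signals were 101.6 and 71.4 (95% interval of the second 69.3 to 73.4), a ratio of 1.42. In replicate 1 the medians were 52.9 with the E-box and 39.2 without it, and in replicate 2 they were 49.6 and 36.5. The ratio was 1.35 in replicate 1 and 1.36 in replicate 2, and 1.42 for pooled signal without the block around mdl-1. It was 1.52 in introns and 1.38 between genes. E-box peaks outside promoters had 1.08 times the median of the E-box peaks in promoters (94.4, 95% interval 84.9 to 107), and the intervals of these medians overlapped.

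Read the other way, the share of peaks with the E-box was greater among stronger peaks. With the peaks outside promoters ranked by pooled signal into 10 bins of 244 or 245 peaks, 40.8% (95% interval 34.6 to 47.3) of the strongest bin held it and 9.80% (6.38 to 14.2) of the weakest. The shares in bins 7, 8 and 9 were 20%, 23.3% and 32.7%, whereas bins 1 to 6 stayed between 9.80% and 16.3% in no steady order. In promoter windows the strongest bin reached 34.6% and the weakest 9.19%. Of the 50 strongest peaks, 29 outside promoters and 26 in promoters held the E-box. The weakest bin was above the 3.12% of windows of equal length centred 400 bp from the summits of peaks outside promoters.

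**Figure D3:**
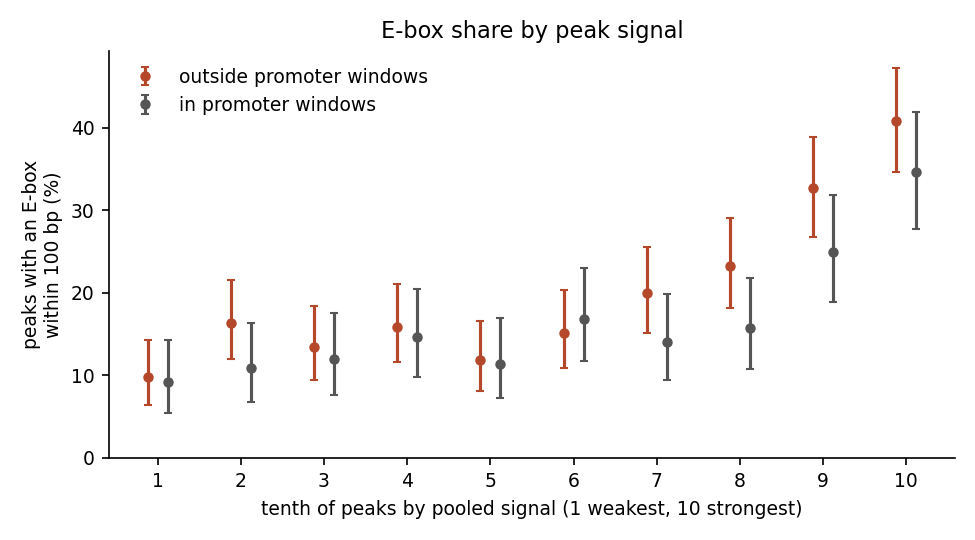
The vertical axis is the percentage of IDR peaks with CACGTG within 100 bp of the summit, and the horizontal axis is the bin by pooled signal (1 weakest, 10 strongest), for peaks outside promoter windows (red) and in them (grey), with exact 95% intervals. Outside promoters the share was 40.8% in the strongest bin and 9.80% in the weakest.

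The hexamer lay near the summit more often than near the limit of the search window. In 17.8% of the peaks its centre was at most 10 bp from the summit, in 32.6% at most 20 bp and in 70.5% at most 50 bp, with a median of 32.5 bp. For E-box peaks in promoters the median was 27.5 bp. The E-box was to the left of the summit in 246 peaks and to the right in 242. The median signal was 107 (95.6 to 139.5) with the E-box within 10 bp, 123 (104 to 147) at 10 to 25 bp, 90.4 (79.5 to 103) at 25 to 50 bp and 91.0 (79.9 to 111) at 50 to 100 bp. It followed no steady order with distance, although both bins within 25 bp had higher medians than both bins beyond it. The interval of the closest bin overlapped the others, and that at 10 to 25 bp lay narrowly above that at 25 to 50 bp. The 5 peaks just inside the limit, with E-box centres 93.5 to 97.5 bp from the summit, had signals of 246 at R11F4.1, 146 at F21C10.10, 133 at nhr-34, 63.7 at C28H8.2 and 62.9 at ins-11. The 5 just outside it, at 98.5 or 99.5 bp, had 153 at ari-2, 112 at F45E1.4, 81.2 at pygl-1, 61.7 at tgt-1 and 48.6 at cpt-6. The signals of both sides overlapped.

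**Figure D4:**
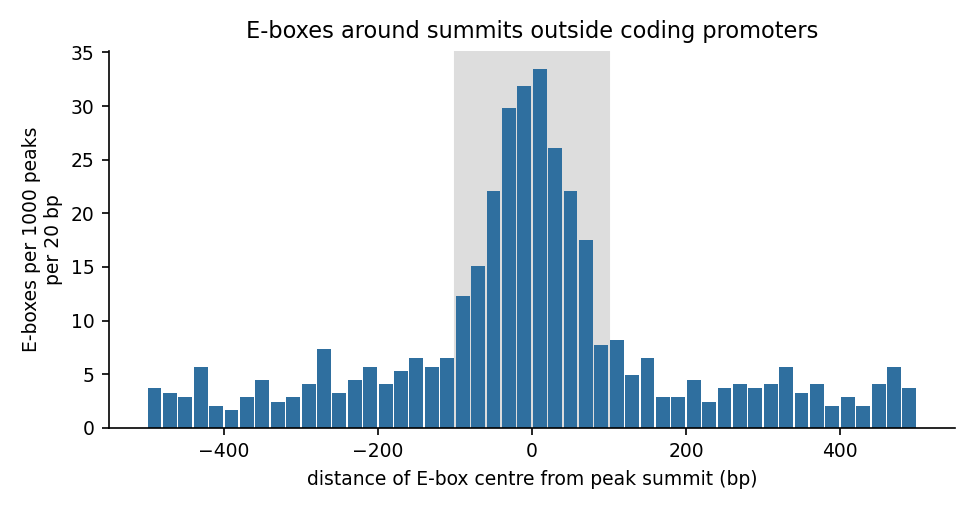
Bars give the number of CACGTG centres per 1000 IDR peaks outside coding promoters in bins of 20 bp, by distance from the summit in bp. All 2449 such peaks were counted, with or without the E-box. The grey band marks the 100 bp to either side in which the 488 peaks had to hold it. The count was 31.8 and 33.5 per 1000 peaks in the bins beside the summit, and 3.67 in the outermost bins.

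Most peaks had a single E-box, and those with more had higher signal. In all, 454 peaks held 1, 31 held 2 and 3 held 3. The 34 with more than 1 had a median of 167 (95% interval 127 to 202), and those with 1 had 97.9 (89.8 to 105). The closest E-boxes in a peak were 9 to 151 bp apart, with a median of 50.5 bp. Of the peaks with 3, the one upstream of tpra-1 had 311 and the one in intron 1 of pah-1, for phenylalanine hydroxylase, had 240.4. The last, in a coding exon of Y42A5A.1, had 57.7, so 3 E-boxes did not always go with high signal. In the 25 strongest, Y43F8B.2 (738), T04C4.3 (446) and lpin-1 (379) had 2.

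The positions were mainly introns and the space between genes. Summits lay in introns in 222 peaks (45.5%) and between genes in 238 (48.8%), with 12 in coding exons, 7 in 5′ UTRs and 9 in 3′ UTRs. Peaks outside promoters without the E-box had 41.8% in introns and 53.2% between genes, and the exact intervals of the intron shares overlapped. Of the intronic peaks, 89 (40.1%) lay in the first intron of the gene and 42 in the second, in 175 genes. The introns had a median length of 3348 bp, and the median summit was 2997.5 bp from the gene start. The 12 peaks in coding exons had a median signal of 59.4, below the 105 of introns and the 100.9 between genes. Of all 488 peaks, 74 (15.2%), 67 of them intronic, were in the window of another annotated start of a coding transcript, and 14.3% of the peaks without the E-box were. They are outside promoters only as gene starts define them.

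The nearest coding gene start was 2386.5 bp away at the median, and 2437 bp for peaks outside promoters without the E-box. It was within 2000 bp for 40.0% of the peaks, within 5000 bp for 77.7% and within 10000 bp for 96.9%, and the farthest was at 19105 bp. The summit was upstream of that start in 47.1%. Beyond the promoter windows, 11 peaks lay within 100 bp, 329 over 1000 bp and 94 over 5000 bp away. Just outside the windows, peaks lay 1010 bp upstream of F26A3.4 (signal 60.0), 1019 bp upstream of C46C2.2 (211) and 225 bp downstream of the start of E01G4.3 (159). Just inside, E-box peaks lay 198 bp downstream of the start of R02D5.9 (324) and 997 bp upstream of mstr-1 (193). The weakest peaks, at B0222.15, obr-2, aqp-3, erp-44.2 and K11D2.1, had signals of 46.3, 45.9, 45.8, 45.7 and 45.7. The strongest pooled peaks that missed the IDR list, at nhr-28 and nhr-1, had 45.5 and 45.2.

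Starts of non-coding genes held a minority of these peaks, and the kinds of gene differed. Summits within the same window of a tRNA gene start were found for 4 peaks (0.820%), and for 105 (5.35%) of the peaks outside promoters without the E-box. For snoRNA genes these were 3 (0.615%) and 56 (2.86%), and for genes annotated as ncRNA 14.8% and 23.3%. Windows of piRNA genes held 18 peaks (3.69%), against 77 (3.93%) without the E-box, with overlapping intervals. The windows of miRNA genes held 6 peaks (1.23%), against 19 (0.969%) without the E-box. The next genes were named with their values known. The strongest was the peak in intron 1 of F09A5.3, which lay 288 bp upstream of mir-54 and also upstream of mir-55 and mir-56, and had 652, with 359 in replicate 1 and 298 in replicate 2. A peak in intron 13 of nurf-1 lay upstream of mir-5595 with 277, and one in intron 8 of phkb-1 was upstream of mir-58.1, a member of the bantam-related family, with 166.

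Chromosome X held 121 of the peaks (24.8%, 95% interval 21.0 to 28.9), the largest count of the 6 chromosomes, and 26.1% of the peaks outside promoters without the E-box. The counts on II, III, IV and V were 83, 67, 74 and 87, and chromosome I had 56. Median signal was 102 on X and 101.3 on autosomes, and 101.5 on X without the block around mdl-1. The lowest chromosome median was the 80.2 of chromosome I (68.0 to 102), and the highest the 118 of chromosome IV (97.8 to 149). These intervals overlapped.

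Only a small part of the E-boxes outside promoters lay under an IDR summit. The genome held 17729 copies of CACGTG, 13866 of them outside promoter windows, and 525 of these (3.79%) had an IDR summit within 100 bp, against 8.23% of the 3863 copies in promoters. The kind of sequence went with large differences in this share. It was 6.89% between genes (95% interval 6.09 to 7.75), 5.56% in introns (4.88 to 6.30) and 0.430% in coding exons (0.275 to 0.638), where 5587 of the copies stood. Over introns and the space between genes, it was 8.18% of 5650 copies in sequence that is not soft-masked as repeat and 1.05% of 2195 copies in masked sequence. The treatment of reads in repeats by the authors is not stated in what was used here, and its part in the low share was not tested. The share was 8.65% on X, and 8.16% there without the block around mdl-1, and 5.65% on autosomes. With each autosome divided into 3 equal segments, the middle ones had 10.8% (9.29 to 12.6) and the outer ones had 4.16% (3.63 to 4.75). Masking and chromosome region were not separated from each other in these shares.

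**Figure D5:**
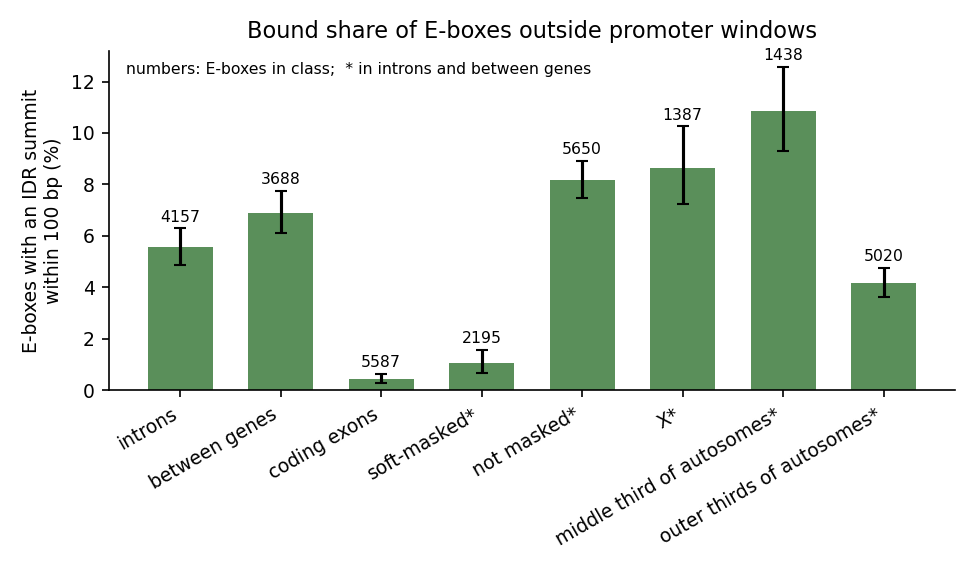
Bars give the percentage of CACGTG copies outside promoter windows with an IDR summit within 100 bp, with exact 95% intervals and the number of copies above each bar, starred classes being limited to introns and the space between genes. The share was lowest in coding exons (0.430%) and highest, of the classes shown, in the middle of autosomes (10.8%).

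Bases beside the hexamer differed between bound copies, those with an IDR summit within 100 bp, and unbound copies, those without. Of the 13866 copies outside promoters, 525 had an IDR summit and 1430 a pooled one within 100 bp. Some unbound copies thus lay at pooled peaks that missed the IDR list. Reading outward from each end, so that both strands count, C stood next to the hexamer at 30.2% of the ends in the 488 peaks, at 39.9% of unbound copies outside promoters and at 36.3% of unbound copies in introns and between genes. T stood there at 29.6%, and at 22.6% and 26.0% of those unbound ends. The next base outward was C at 19.8% in the peaks, and at 13.4% and 15.5% of the unbound ends. At the E-boxes of promoter peaks these shares were, in the same order, 24.8%, 27.4% and 19.3%. Sorted by the dinucleotide after the hexamer at either end, CACGTGAC had the highest bound share in introns and between genes, 80 of 629 copies (12.7%, 95% interval 10.2 to 15.6). It was followed by CACGTGCC with 11.5% (8.73 to 14.8) and CACGTGGG with 11.2% (8.67 to 14.3). The lowest were CACGTGGT with 4.05% (3.29 to 4.93) and CACGTGGA with 4.19% (3.17 to 5.42). In unmasked sequence alone, CACGTGAC had 14.8%, CACGTGCC 14.1% and CACGTGGG 13.6%. There CACGTGGT had 8.52% of 1044 copies, out of 2346 with the masked ones, and CACGTGGA had 5.18% of 984 copies, out of 1313.

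Longer flanks were counted on fewer copies. With 1 base on each side, GCACGTGA had the highest bound share in introns and between genes, 10.3% (95% interval 7.75 to 13.3), and ACACGTGG had the lowest, 4.56% (3.54 to 5.78). With 2 bases, 6 of the 15 copies of CGCACGTGAC there were bound (40%, 16.3 to 67.7), including the strongest peak in intron 1 of T28B11.1. Of the 11 copies of CCCACGTGGG, 4 were bound (36.4%, 10.9 to 69.2), including those of gdh-1 and ZK470.2. Between them stood CGCACGTGCA, with 3 of 8 copies bound (37.5%, 8.52 to 75.5). These counts are small, and the sequences are named because they stood highest. Among more frequent contexts in introns and between genes, 16 of 97 copies of ACCACGTGAC (16.5%) and 17 of 167 of TTCACGTGAA (10.2%) were bound. By contrast 1 of 147 copies of GCCACGTGGC (0.680%) and 0 of 157 copies of ACCACGTGCA were. Of all copies outside promoters, 16 of 357 were soft-masked for GCCACGTGGC and 93 of 193 for ACCACGTGCA. Peaks with ACACGTGC had the highest median signal, 157 (115 to 204, 38 peaks), and those with ACACGTGG the lowest, 85.9 (72.3 to 101.6, 65 peaks). The intervals of most 8-base contexts overlapped, as for GCACGTGA with 114.5 (79.3 to 153).

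Other short sequences were counted within 100 bp of the summit, on both strands and with overlaps to the E-box or to each other allowed, each window counted once. GAGAGA, a GA repeat, stood in 39.8% of the E-box peaks outside promoters, in 48.4% of the peaks without the E-box there and in 10.3% of windows 400 bp from the summits of the E-box peaks. GATAAG, a site for GATA factors, stood in 25%, 19.3% and 7.68% of the same sets. CATGTG, an E-box variant, stood in 14.1%, 23.0% and 7.27%, and the variant CACGCG in 5.94%, 12.8% and 2.25%. GCGCGC stood in 22 of 488, 147 of 1961 and 7 of 976 windows of these sets. CAGCTG had 6.76%, 5.66% and 3.59%, and GTAAACA, a forkhead site, had 6.76%, 4.23% and 3.07%. TGACTCA stood in 11, 49 and 23 windows of them, or 2.25% with the E-box and 2.36% of the windows 400 bp away. GC content was 41.25% at the median with the E-box and 44% without it, and its part in these shares was not tested. E-box peaks with GAGAGA had a median signal of 128 (109 to 142), and those without it had 89.8 (82.3 to 100.1). Among peaks without the E-box, the medians were 75.7 with GAGAGA and 67.8 without it. For comparison, E-box peaks in promoters held GAGAGA in 36.0%, GATAAG in 26.4%, CATGTG in 8.91% and CACGCG in 5.61%. They held GCGCGC in 3.63%, CAGCTG in 4.95%, GTAAACA in 4.62% and TGACTCA in 2.64%.

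The 488 peaks were assigned to 402 of 19973 protein-coding genes (2.01%), each peak to the gene that holds its summit or else to the nearest start. Of these genes, 346 had 1 peak, 35 had 2 and 21 had 3 or more. The 202 genes that held a summit had a median length of 6991.5 bp, against 2027 bp for all protein-coding genes. The most peaks, 5 each, fell to nhr-34 and T28B11.1. At nhr-34 the peak upstream had 564 and 4 peaks inside the gene had 149, 133, 131 and 65.4. All 5 at T28B11.1 were in introns, with 417, 139, 99.7, 85.3 and 74.8. At Y43F8B.2, 4 intronic peaks had 738, 214, 197 and 120. Genes that held 3 intronic peaks included C30G4.4, ZK470.2, H18N23.2, nurf-1 for the largest subunit of a chromatin remodelling complex, pkg-2 for a cGMP-dependent kinase and rpoa-1 for the largest subunit of RNA polymerase I. M01H9.3 held 3, the strongest of 450 in a 5′ UTR. With gaps of at most 5000 bp, 54 of the peaks fell into 15 groups of 3 or more.

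Among genes of the Myc, Mondo and Max network, 3 of 5 had a peak. Beside mdl-1, the Mondo-type gene mml-1 had a peak of 345 with 2 E-boxes at 1873 bp upstream, with 185 in replicate 1 and 159 in replicate 2. The Max-type gene mxl-3 had peaks of 153 and 136. Subunits of AMP-activated kinase, an energy sensor, had 7 peaks at 4 of 9 genes. At aakg-1 the upstream peak of 976 was joined by 3 intronic ones of 287, 142 and 51.4. The other gamma subunit genes aakg-3 and aakg-4 had 231 and 63.0. In the insulin/IGF-1 pathway 4 of 11 genes had a peak, 375 at 2336 bp upstream of the kinase gene akt-1, 197 in intron 1 of the receptor gene daf-2, and 150 in intron 1 of ist-1, for an insulin receptor substrate. The FOXO factor gene daf-16 had 102 in an intron and 77.1 outside the gene. With or without the E-box, a peak outside promoters was assigned to 3 of the 5 network genes and 5 of the 9 kinase subunit genes. The same held for 7 of the 11 insulin/IGF-1 genes, beside 1608 of all 19973 genes. These lists were drawn up with earlier results of these data known, so their shares beside the 2.01% of all genes are descriptions.

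Of 14 longevity transcription factor genes, 4 had a peak. Besides hif-1 and daf-16 they included pqm-1, a weak peak of 50.8, and hlh-30, the TFEB homologue, with 304 in intron 2 (185 in replicate 1 and 113 in replicate 2). It was also the one gene with a peak among 25 hlh genes of the basic helix-loop-helix family. In the TGF-beta pathway 3 of 17 had one. Apart from daf-14, the Sno/Ski gene daf-5 had 223 and 56.0 in intron 1 and the Schnurri gene sma-9 had 199. Of 13 heterochronic genes, which time larval development, lin-14 had 131 in an intron and hbl-1 had 84.1. Of 25 Wnt pathway genes, the Axin gene pry-1 had 159. The Wnt list was not complete. The Wnt pathway gene lit-1 was not on it and held 2 E-box peaks, the stronger of 141. The count of 1 of 25 thus depends on which genes were listed. The counts of these lists stand beside 2.01% of all genes. With or without the E-box, a peak outside promoters was assigned to 10 of the 14 longevity factor genes, 10 of the 13 heterochronic genes, 4 of the 17 TGF-beta genes, 3 of the 25 Wnt genes and 4 of the 25 hlh genes, beside 1608 of all 19973 genes. No difference between peaks with and without the E-box was tested for these lists.

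Nuclear hormone receptor genes had 24 of the peaks at 15 of 269 genes (5.58%, 95% interval 3.15 to 9.03), and 47 of the 269 had a peak outside promoters with or without the E-box. After nhr-19 and nhr-34 the strongest were 353 at nhr-88 and 271 in intron 1 of nhr-27. The FMRFamide-like peptide gene flp-18 had 82.9 and was 1 of 31, and the collagen gene col-99 had 316 in intron 2 and was 1 of 156. No gene on the lists of 78 neuropeptide-like, 64 ceh homeobox, 24 autophagy and 8 TOR signalling genes had one, beside 2.01% of all genes. The exact upper limits were 36.9% for 8 genes and 14.2% for 24, so at this list size the share cannot be set apart from that of all genes. Counting peaks outside promoters with or without the E-box, 6 genes of the autophagy list and 2 of the TOR signalling list had one. The autophagy list was not complete. The autophagy gene epg-9 was not on it and held an E-box peak of 339 in an intron. Median gene length was 866.5 bp for the neuropeptide-like list, 2309 bp for the receptors, 4101 bp for the AMP-activated kinase genes and 7281 bp for the insulin/IGF-1 list. The part of gene length in these shares was not tested. The col-99 peak also lay 14 bp upstream of a tRNA gene start.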

How the data were processed

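Whole-worm ChIP-seq of 2 biological replicates was available as peak lists. Per the deposited file descriptions, the authors called peaks on each replicate and on both replicates pooled, against a control not analysed here, and derived the IDR list from these. The deposited signal of each peak is the caller's value and the deposited −log10 q value was not used for results. The sources used here name no aligner, caller, version or IDR threshold, so no filter on repeats or duplicates could be checked.

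Lists on ce11 were used with the RefSeq sequence of WBcel235 and Ensembl release 115 genes. The ce10 lists were not used, as no ce10 sequence was at hand. A summit outside promoter windows took the first feature that held it among coding exons, 5′ UTRs, 3′ UTRs and introns, and was otherwise between genes. In each replicate list, the strongest peak overlapping an IDR peak gave its value. Soft-masking is that of the sequence file. The block around mdl-1 joins neighbouring IDR peaks no more than 10000 bp apart. Intervals of shares are exact (Clopper-Pearson) at 95%, those of medians from order statistics, and cover counting of peaks or sites only. No test was made. Symbols came from RefSeq by WormBase identifier.

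The peaks, motifs and gene lists were chosen with earlier results of these data known. Genes were named by rule: the gene holding the summit, else the nearest start, for the 25 strongest peaks, genes holding 3 or more, up to 4 strongest peaks per list, mdl-1, 5 peaks nearest the window limit and 5 weakest. Peaks with 3 E-boxes, those on either side of a threshold, those of pqm-1, epg-9 and lit-1 and those in small RNA windows were picked with their values known. Alternatives covered windows, starts, summit or midpoint, signal, peak list and the 4293 strongest peaks of either replicate. The counting was tested on simulated data. Software was Python 3.11.15 with scipy 1.17.1, pandas 2.3.3, numpy 2.4.6 and matplotlib 3.10.9.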

Additional observations from a re-analysis of the deposited data

Results flagged for a closer look

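Apart from the signals at nhr-28 and nhr-1 and the count of copies near pooled summits, pooled peaks that missed the IDR list were not described above. These peaks too held the E-box more often than nearby sequence. Of 17037 such peaks outside promoter windows, 863 had CACGTG within 100 bp of the summit (5.07%, 95% interval 4.74 to 5.41), against 3.20% of windows 400 bp away. Divided by signal into 4 equal bins, the highest bin had a share of 7.61% (6.83 to 8.44), against 3.08% of windows 400 bp away, and the 3 lower bins had 4.15%, 4.16% and 4.34%. No control sample was analysed here, so the windows 400 bp away are the background.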

How the results depend on the processing

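Of 69 recomputed values, 55 stayed within the interval of the reported value (within 1.5 times for the number of peaks), 14 moved outside it and 0 reversed. The share of E-boxes outside promoters with a summit, reported as 3.79%, was 2.51% with a window of 50 bp, 4.36% with 150 bp, 3.45% with all coding transcript starts, 2.55% with IDR peaks at or above the median signal and 10.3% with all pooled peaks. It was 8.18% for unmasked copies in introns and between genes, an alternative chosen after seeing the data. The number of peaks, 488, was 323 at or above the median signal and 1351 with all pooled peaks, and the signal ratio of 1.42 was 1.3 and 1.71 under the same settings. The intron share of 45.5% was 52.8% with windows of 2000 bp upstream to 500 bp downstream and 37.3% with all coding transcript starts. The share overlapped in both replicates, 100%, was 86.9% with 50% of both peaks covered and 85.5% against the strongest replicate peaks. These changes follow from which peaks and sites each setting counts. Each replicate alone gave 467 to 469 peaks, 45.8% to 46.3% in introns, 25.1% to 25.4% on X, ratios of 1.40 to 1.43, C at 29.6% to 30.6% of flanks and 3.64% to 3.66% of E-boxes. Of the 488 peaks, 88.3% were shared with replicate 1 alone (91.7% of its 469) and 87.9% with replicate 2 alone (91.9% of its 467). Without the block around mdl-1, chosen after seeing the data, the values were 480 peaks, 45.6%, 23.5%, 1.42, 30.4% and 3.73%. No paired analysis was possible because the samples form 1 group. The ce10 alternative was not run for lack of a ce10 sequence. Unknown depth limits what the weaker lists can show.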
